A study of Mus musculus with 6 samples.

Results

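Gene expression was compared between 2 cultures of MEFs (fibroblasts of connective tissue taken from mouse embryos) that by their labels had both received a vector expressing H-Ras and SV40T: Per2m/m cells, which carry a mutated Per2 gene, and wild type cells. They make up 2 of the 6 samples of the series and were picked by their titles, with 1 array on each side and no replicate. The other samples were mock-treated Per2m/m, mock-treated wild type, and Clk/Clk cells (a Clock mutant by the series design) with the same vector or mock. All cells were of the ICR strain and were grown in DMEM with fetal bovine serum. For the transfected Per2m/m sample the source name gives H-Ras but not SV40, while its treatment label gives the same vector as for the wild type, so whether both cultures received SV40T cannot be told from the labels alone. Not given in the labels are the altered part of Per2, the sex of the embryos, or whether the cultures were pools or single clones, and with 1 culture a genotype a difference between genotypes cannot be told apart from a difference between cultures.

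PER2 is a repressor of the circadian clock. With the cryptochromes it inhibits the CLOCK-BMAL1 dimer, which binds E-box sequences and drives Per and Cry genes and many clock-controlled genes. H-Ras is a small GTPase that signals through RAF, MEK and ERK kinases, and the SV40 large T antigen binds p53 and the RB proteins, so the pair is a common way of making rodent fibroblasts grow as oncogenic cells. The series title links Per2 dysfunction in oncogenic cells to chemoresistance through Aldh3a1, the gene of an aldehyde dehydrogenase that oxidises aldehydes formed by lipid peroxidation and the activated form of the drug cyclophosphamide. The comparison therefore asks which transcripts differed between transfected cells with and without the Per2 mutation.

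Levels below are log2 intensity of a probe minus the 75th percentile of its array, and a ratio is the level on the Per2m/m array minus that on the wild type array, so positive ratios are higher in Per2m/m cells. The levels of different probes are not comparable with each other. A gene was measured when its probe was well above background on the array of the pair where its level was higher. It counted as higher or lower at a ratio of at least 2-fold. With 1 array a side there is no spread between replicates and no test, and the only error known is the spread between repeated spots of a probe, 0.07 on the log2 scale for a ratio. Where a probe was well above background on only 1 array, the counts used its measured ratio, and the size is given as a bound, at least N-fold, against the lowest level at which any probe of the dim array was well above background (-4.59 on the Per2m/m array and -5.47 on the wild type array) or the probe's own level, whichever was higher.

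Of 22339 named genes on the array, 15241 were measured, 12963 of them on both arrays, 536 on the Per2m/m array only and 1742 on the wild type array only. The 2 cultures differed widely. In Per2m/m cells 2451 genes (16.1%) were higher and 2719 (17.8%) were lower, while the other 10071 stayed within 2-fold. At 4-fold the counts were 1056 higher and 1503 lower. Of the higher genes 532 were well above background in Per2m/m cells only, and of the lower genes 1321 in wild type cells only. With the bound in place of every dim value 2446 genes were higher and 2193 lower, and over genes well above background on both arrays 1919 and 1398. Between mock cells of the same genotypes, 731 of 15576 genes (4.69%) were higher and 726 (4.66%) were lower in Per2m/m cells. The SD of the log2 ratio over genes was 1.89 in the transfected pair and 0.75 in the mock pair. Because the samples are bulk RNA, fewer cells of a type and less RNA per cell cannot be told apart in any of these differences.

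**Figure D1:**
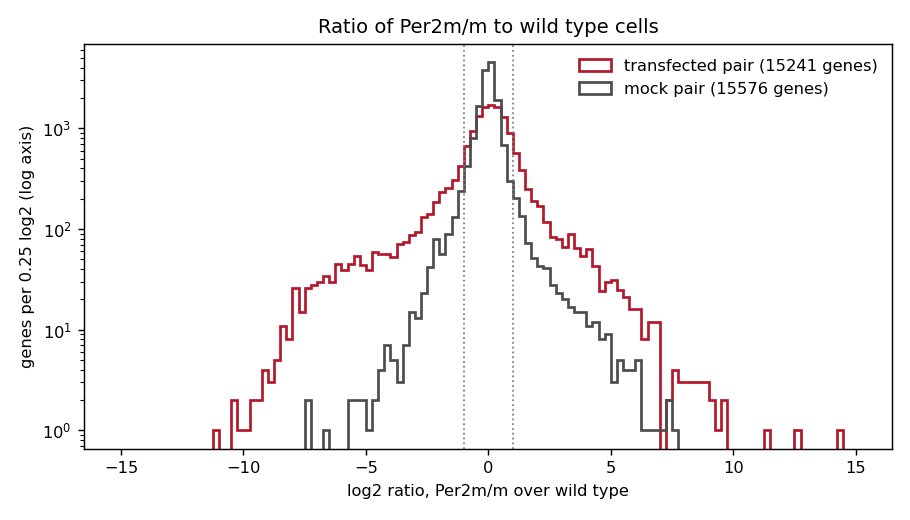
Number of genes (log axis) by log2 ratio of Per2m/m to wild type, in bins of 0.25, for the transfected pair (red, 15241 genes) and the mock pair (grey, 15576 genes). Dotted lines mark 2-fold. The transfected distribution has far longer tails on both sides, with an SD of 1.89 against 0.75.

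Transfected Per2m/m cells gave an array unlike the other 5. Over 12362 genes well above background on all 6 arrays, its levels correlated with those of the other arrays at a Pearson r (across genes) of 0.87 to 0.91, while the median r of each other array was 0.94 to 0.96. It had 49.3% of its spots well above background, against 56.3% on the transfected wild type array and 53.5% to 57.3% on all others. Its median signal was 18.54, against 28.1 on the wild type array, and its 75th percentile was 420.4, against 634.0. Both Per2m/m arrays lay in row 2 of the slide and the other 4 in row 1, so slide row and genotype cannot be told apart. Neither array of the pair can be left out, and every value below rests on the Per2m/m array.

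Aldh3a1 was far higher in transfected Per2m/m cells than on any other array. Its level was 6.53 in transfected Per2m/m cells, against 1.18 in transfected wild type cells. It was 1.90 in mock Per2m/m cells, against 1.81 in mock wild type cells, and 1.01 and 0.89 in transfected and mock Clk/Clk cells. The 5 other samples thus lay between 0.89 and 1.90, and the transfected Per2m/m sample lay above them all. The ratio of the transfected pair was 5.35, or 40.9-fold, and it ranked 125 from the top of 15241 genes. A second probe, which covers nearly the same stretch, read 6.47 in transfected Per2m/m cells, against -2.12 in transfected wild type cells, a ratio of 8.58. This probe was well above background on those 2 arrays alone, with levels of -6.26 and -6.41 in mock Per2m/m and wild type cells. Both probes put Aldh3a1 higher in Per2m/m cells but differ in size. The probes share 53 bases and are shifted by 7 bases on the transcript (build mm9, plus strand, chr11:61031857-61031916 and chr11:61031864-61031920). Their last 30 bases, with the 7 bases that only the second has in capitals, show how small the difference between them is.
Aldh3a1 probe A_55_P2101216: gcacagagaccaataaaaaagcctctaaag
Aldh3a1 probe A_55_P2065562: gaccaataaaaaagcctctaaagAAAAGTC

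Per2, Clock and Hras each stayed within 2-fold between the transfected cultures. The Per2 probe, at position 5290 of the transcript (mm9, chr1:93313046-93313105), read -2.82 in transfected Per2m/m cells, against -2.38 in transfected wild type cells, a ratio of -0.44. In mock cells it read -0.98 in Per2m/m, against -3.37 in wild type, a ratio of 2.39, and in transfected and mock Clk/Clk cells it read -3.88 and -3.91. As the altered part of Per2 is not given, this probe does not check the genotype label. Clock, which encodes the partner of BMAL1, read 0.78 in Per2m/m cells and 0.70 in wild type cells. Hras had a probe at 3.16 in Per2m/m cells and 4.01 in wild type cells (ratio -0.85) and another with the opposite sign (0.38). Whether the vector carried human or mouse H-Ras is not stated, so these mouse probes do not check the transfection.

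Transcripts of the sex chromosomes set the cultures apart. Xist, a noncoding RNA by which female cells silence 1 of their X chromosomes, read -6.18 and was not well above background in transfected Per2m/m cells, against -0.95 in transfected wild type cells (at least 12.4-fold lower). Ddx3y, a Y-linked RNA helicase, read -6.74 in transfected Per2m/m cells, against 1.1 in wild type cells (at least 51.7-fold lower). Eif2s3y, a Y-linked translation factor, read -6.85, against 0.95 (at least 46.4-fold lower). Uty, a Y-linked homologue of a histone demethylase, was at -6.40 in Per2m/m cells and -4.70 in wild type cells, which is below the lowest level well above background on the Per2m/m array, so it has no bound in either direction, and Kdm5d was well above background on no array. In mock cells Xist read -0.53 in Per2m/m cells and -1.03 in wild type, Ddx3y -0.05 and 1.40, and Eif2s3y -0.81 and 0.87. Wild type cells and mock Per2m/m cells thus held both Xist and Y-linked transcripts, and transfected Per2m/m cells held neither above background. In transfected and mock Clk/Clk cells Xist was not well above background either (-6.63 and -6.79), while Ddx3y read 1.97 and 2.40.

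The highest ratio among genes well above background on both arrays belonged to Rhox5, an X-linked homeobox gene normally active in testis, placenta and ovary. It read 8.91 in transfected Per2m/m cells, against -3.66 in transfected wild type cells, a ratio of 12.57 or 6075-fold. On the other arrays it stayed between -3.98 and -0.76, with mock Per2m/m cells at -1.59 and mock wild type cells at -3.98. Slpi, a secreted inhibitor of leukocyte elastase, read 7.34 in Per2m/m cells and -3.99 in wild type cells, a ratio of 11.33, and went the other way in mock cells, with -3.80 in Per2m/m cells and -0.71 in wild type. Blnk, an adaptor of B-cell receptor signalling, read 4.22 and -4.71 in Per2m/m and wild type cells. The water channel gene Aqp5 read 6.48 in Per2m/m cells and -2.25 in wild type cells, and -0.34 and -0.68 in their mock counterparts. These genes share no single tissue, though Slpi and Aqp5 are both in the epithelial list below. Each was far higher on the transfected Per2m/m array than on any of the other 5. The next 8 were Dnajc22 (a DNAJ-family protein, 8.17), Phactr1 (a regulator of actin and protein phosphatase, 7.70), Tnni2 (fast skeletal troponin I, 7.33), Pgbd5 (a transposase-derived gene, 7.0), Rgs2 (a brake on G-protein signalling, 6.89), Slx (an X-linked spermatid gene, 6.88), Celsr1 (a planar polarity cadherin, 6.86) and Syt8 (a synaptotagmin, 6.79). Promoters are printed for Rhox5, Slpi and Aqp5, which are among the genes with the largest differences. That of Blnk, not printed, holds no CACGTG. Over all higher genes CACGTG was in 9.15% of promoters, against 10.1% among genes within 2-fold. CACGTG, the E-box of CLOCK-BMAL1, is in capitals where it was found, and for Rhox5, which has none, the 5 CG pairs are. All are from RefSeq and run from 250 bases before to 50 after the start.
Rhox5 promoter (GRCm38.p6, chrX:37754358-37754657, plus strand): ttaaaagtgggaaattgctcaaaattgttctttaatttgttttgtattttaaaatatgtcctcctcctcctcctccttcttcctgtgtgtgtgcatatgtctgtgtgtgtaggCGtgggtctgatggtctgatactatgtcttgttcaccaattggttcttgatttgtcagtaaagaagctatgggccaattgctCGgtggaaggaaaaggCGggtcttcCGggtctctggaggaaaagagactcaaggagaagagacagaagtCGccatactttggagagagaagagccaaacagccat
Slpi promoter (GRCm38.p6, chr2:164356458-164356757, minus strand): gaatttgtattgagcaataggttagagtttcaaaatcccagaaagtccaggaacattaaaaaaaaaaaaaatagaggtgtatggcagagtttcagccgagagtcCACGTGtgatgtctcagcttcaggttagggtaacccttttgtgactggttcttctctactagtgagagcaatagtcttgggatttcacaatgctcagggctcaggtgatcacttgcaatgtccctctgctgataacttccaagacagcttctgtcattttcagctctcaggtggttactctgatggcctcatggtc
Aqp5 promoter (GRCm38.p6, chr15:99590778-99591077, plus strand): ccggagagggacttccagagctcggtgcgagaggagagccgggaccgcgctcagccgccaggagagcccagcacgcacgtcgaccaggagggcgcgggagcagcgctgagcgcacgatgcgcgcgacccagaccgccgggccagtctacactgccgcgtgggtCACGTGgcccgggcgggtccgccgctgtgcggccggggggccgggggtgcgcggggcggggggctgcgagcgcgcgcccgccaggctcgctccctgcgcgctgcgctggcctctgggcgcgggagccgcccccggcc

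Some genes were well above background in Per2m/m cells only. Rpl39l, a ribosomal protein paralogue known from testis and cancer cells, read 6.83 in transfected Per2m/m cells, against -7.44 in transfected wild type cells, at least 5036-fold higher. It read 1.37 in both mock cultures and 4.82 and 4.02 in transfected and mock Clk/Clk cells, so the wild type array lay below the 4 others and the Per2m/m array above them. Slurp1, a secreted epithelial protein, was at least 613-fold higher (3.84 in Per2m/m, -5.42 in wild type), and on the other 4 arrays it lay between -6.75 and -4.84. Sh3tc2, known from Schwann cell myelination, was at least 398-fold higher, Acox2, a peroxisomal oxidase of bile acid synthesis, at least 309.8-fold, Epha8, an ephrin receptor, at least 227-fold, and Rhd, of the rhesus blood group family, at least 205-fold higher.

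The lowest ratios belonged mainly to contractile and matrix genes and to regulators of growth factors. Cnn1, calponin of smooth muscle, read -2.99 in transfected Per2m/m cells, against 7.41 in transfected wild type cells, a ratio of -10.41. It was 7.93 in mock Per2m/m cells, against 7.64 in mock wild type cells, and 7.45 and 7.24 in transfected and mock Clk/Clk cells. Myl9, the regulatory light chain of smooth muscle myosin, read -0.86 in Per2m/m cells and 8.56 in wild type cells (-9.41), and Tagln, the actin-binding protein transgelin, 0.75 and 8.93 (-8.18). For each of these 3 genes the 5 other arrays lay within 1 log2 unit of each other and the transfected Per2m/m array alone was low. The transfected Per2m/m array was also far below the others for Hspb1, a small heat shock protein that binds actin, which read -2.86 in Per2m/m cells and 6.77 in wild type cells (-9.63) and between 6.22 and 7.81 elsewhere. Actg2, the enteric smooth muscle actin, had a ratio of -8.43, and Thbs1, the matrix protein thrombospondin 1, of -8.39. Lrrc32, which holds latent TGF-beta at the cell surface, stood at -8.70, the activin antagonist Fst at -8.01, and the basement membrane collagen Col4a1 at -7.97. Cdkn2b, the CDK inhibitor p15, read -4.28 in Per2m/m cells and 3.99 in wild type cells (-8.26), and 2.28 and 4.00 in their mock counterparts. Atp11a, a phospholipid flippase, had a ratio of -8.34 and Cyba, a subunit of NADPH oxidase, of -8.10.

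**Figure D2:**
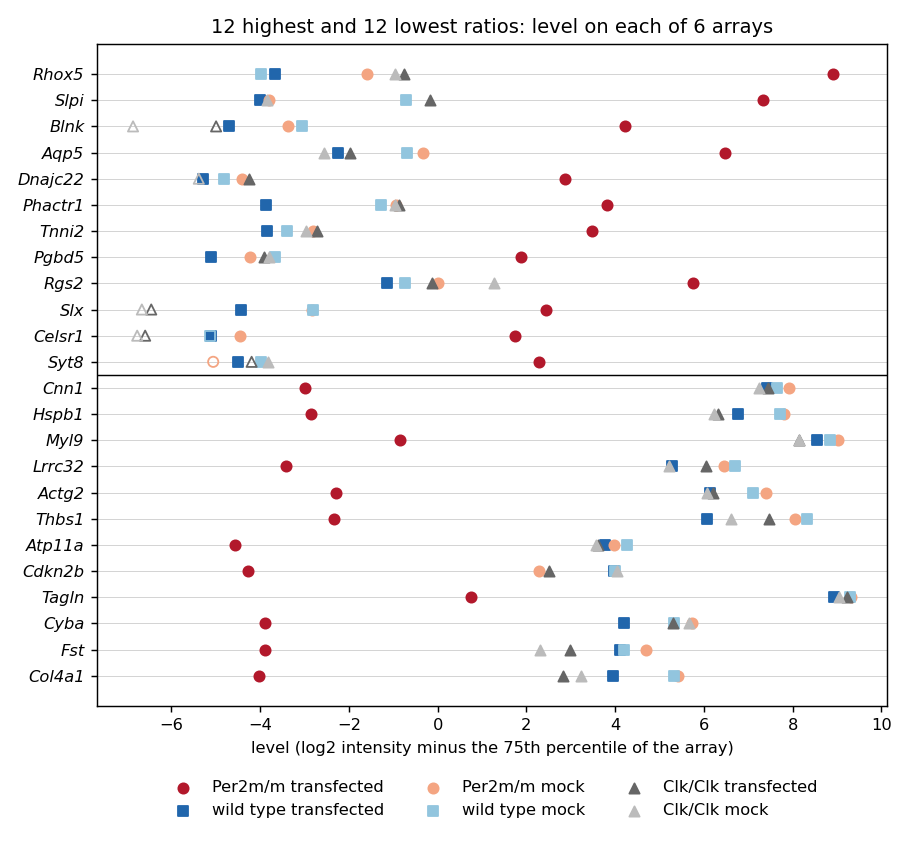
Level on each of the 6 arrays (log2 intensity minus the array's 75th percentile) for the 12 genes with the highest ratio (above the line) and the 12 with the lowest (below it) among genes well above background on both transfected arrays. Open symbols are not well above background. For Cnn1 and Myl9 the transfected Per2m/m array is far left of the 5 others, and for Rhox5 and Aqp5 far right of them.

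Genes of this contractile group are shown by their promoters, since smooth muscle and cytoskeletal genes are known targets of serum response factor, which binds the CArG box. A CArG box was counted only in its strict form, CC, then 6 letters of A or T, then GG. It is in capitals in Myl9 and Cnn2, where it was found. For Cnn1, which has no such match in this window, the 6 CG pairs are in capitals. The promoter of Acta2, not printed, had no strict match either. It does hold near matches with a C or a G among the 6 letters, so a count of 0 does not mean that no CArG box is there.
Myl9 promoter (GRCm38.p6, chr2:156775214-156775513, plus strand): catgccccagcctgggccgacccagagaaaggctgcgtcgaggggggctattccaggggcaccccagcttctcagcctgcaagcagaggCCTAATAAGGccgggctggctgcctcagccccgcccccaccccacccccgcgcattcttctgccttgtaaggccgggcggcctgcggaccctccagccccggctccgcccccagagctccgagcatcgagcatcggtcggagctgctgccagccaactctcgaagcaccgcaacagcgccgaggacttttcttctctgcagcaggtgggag
Cnn2 promoter (GRCm38.p6, chr10:79988350-79988649, plus strand): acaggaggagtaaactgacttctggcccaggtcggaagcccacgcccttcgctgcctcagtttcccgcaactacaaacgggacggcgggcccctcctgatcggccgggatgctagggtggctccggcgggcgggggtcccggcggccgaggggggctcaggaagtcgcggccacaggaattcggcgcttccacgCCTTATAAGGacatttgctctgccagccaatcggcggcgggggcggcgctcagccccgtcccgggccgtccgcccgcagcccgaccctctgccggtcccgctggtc
Cnn1 promoter (GRCm38.p6, chr9:22099003-22099302, plus strand): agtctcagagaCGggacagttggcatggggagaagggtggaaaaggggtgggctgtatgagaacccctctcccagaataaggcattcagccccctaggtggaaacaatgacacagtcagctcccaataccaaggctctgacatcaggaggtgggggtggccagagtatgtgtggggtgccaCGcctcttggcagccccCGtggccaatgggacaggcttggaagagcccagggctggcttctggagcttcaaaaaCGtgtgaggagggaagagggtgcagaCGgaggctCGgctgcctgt

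Among genes well above background in wild type cells only, Perp, a desmosome-linked p53 target, read -6.67 in transfected Per2m/m cells, against 3.76 in transfected wild type cells (at least 327-fold lower). In mock cells Perp was higher in Per2m/m (3.31) than in wild type (1.21). Clk/Clk cells read -3.56 with the vector and -5.08 without, so it varied between cultures of every genotype. Loxl2, which cross-links collagen, read -5.04 in Per2m/m cells and 3.41 in wild type cells (at least 257-fold lower). Its size is uncertain, as another of its probes was well above background on both arrays with a ratio of -2.12. Ttyh3, a membrane protein of the tweety family, was at least 267-fold lower, Cthrc1, a secreted collagen triple helix protein, at least 242-fold, and Serpinb2, an inhibitor of plasminogen activators, at least 231-fold lower.

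The differences were next read by gene lists, each set beside the median of 0.05 and the shares of 16.1% higher and 17.8% lower over all genes measured. Members dim on both arrays were not measured, and a member measured on 1 array alone could count towards that array only, so the counts describe these 2 arrays and test nothing. The lists of fibroblast contraction and its signals lay lowest. Of 18 measured contractile and cytoskeletal genes of myofibroblasts (of 20 listed), 14 were lower and 2 higher, with a median ratio of -2.41 in the transfected pair and 0.06 in the mock pair. Beside the genes above, Acta2, the smooth muscle actin that marks myofibroblasts, read 3.41 in Per2m/m cells and 8.94 in wild type cells (-5.53), and 9.42 and 9.34 in mock cells. The tropomyosins Tpm2 and Tpm1 had ratios of -3.39 and -2.78, Cnn2 of -3.28, and the actin cross-linker Actn1 of -1.72. Both higher members were well above background in Per2m/m cells only, and they were Des, desmin of muscle intermediate filaments (at least 2.17-fold), and Mylk, myosin light chain kinase (at least 12.9-fold). Mylk is uncertain, as its other probe had a ratio of -0.94.

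TGF-beta signalling, which drives contractile and matrix genes in fibroblasts, had the lowest median of the gene lists other than cell type markers. Of 32 measured genes (of 33), 23 were lower and 1 higher, with a median of -2.43 in the transfected pair and -0.10 in the mock pair. Its lower members included ligands and antagonists. Among ligands, Bmp4 was at least 89.6-fold lower and Inhbb, an activin subunit, at least 112-fold lower. Among antagonists, Fst is given above, and Grem1, a BMP antagonist, read -3.35 in Per2m/m cells and 3.55 in wild type cells (-6.90). Lrrc32 read -3.42 in Per2m/m cells, against 5.29 in wild type cells and 5.21 to 6.71 on the other 4 arrays.

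Matrix genes followed. Of 42 measured matrix glycoproteins and proteoglycans (of 44), 22 were lower and 6 higher, with a median of -1.28. Thbs1 read -2.33 in Per2m/m cells, against 6.06 in wild type cells and 6.60 to 8.33 on the other arrays. Postn, periostin, read -3.54 and 3.30 (-6.84). The basement membrane genes Nid2 and Lama4 were at least 53.2-fold and at least 149-fold lower, and Tnc, the injury-associated tenascin, at least 23.6-fold lower. Of 26 measured collagens (of 27), 17 were lower and 4 higher, with a median of -1.45. Col4a1 and Col4a2, which share a promoter and form the common type IV collagen, had ratios of -7.97 and -6.81, and Col4a6, another chain of type IV, stood at 3.12 in Per2m/m cells and -2.25 in wild type cells (5.38). The other probe of Col4a6 had a ratio of 0.82, within 2-fold, so the size for this chain is uncertain. By the main probe of each gene type IV chains thus moved in both directions. The fibrillar collagen Col3a1 read 1.57 and 5.46 (-3.89), Col12a1, which associates with fibrils, -4.06 and 1.95 (-6.01), and the cartilage collagen Col2a1 was at least 179-fold lower.

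Matrix proteases and their inhibitors were mostly lower too, 15 of 25 measured (of 32 listed), with 2 higher and a median of -1.83. Plau, urokinase, which activates plasminogen, was at least 36.4-fold lower. Timp3, an inhibitor of metalloproteinases held in the matrix, had a ratio of -7.04, Mmp23 was at least 128-fold lower and Serpine2 at least 27.1-fold lower.

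Markers of fibroblast identity did not go one way. Of 26 measured (of 32 listed), 9 were lower and 5 higher, with a median of -0.29 that becomes 0.08 over genes well above background on both arrays, and 22 were well above background in transfected Per2m/m cells, against 26 in transfected wild type cells. Thy1, a surface marker of fibroblasts, read -0.66 in Per2m/m cells and 3.53 in wild type cells (-4.19), Cdh11, the mesenchymal cadherin, was at least 23.9-fold lower, and Foxf1, a mesenchymal transcription factor, at least 119-fold lower. Its relative Foxf2 was higher (2.94), as was the mesothelial surface protein Msln (3.69). Epithelial genes were split, with 8 higher and 8 lower of 29 measured (of 51 listed) and a median near 0 that changes sign with the scaling. It was 0.32 over genes well above background on both arrays and ran from -0.01 to 0.79 over the settings. Slpi and Aqp5, given above, are among the higher members of this list. Krt14, a basal keratin, read 2.57 in Per2m/m cells and -3.84 in wild type cells (6.42), Krt8 was at least 7.31-fold higher and Cdh1, E-cadherin, at -3.29, at least 4.51-fold higher. Dsp, desmoplakin, was at least 7.32-fold lower.

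**Figure D3:**
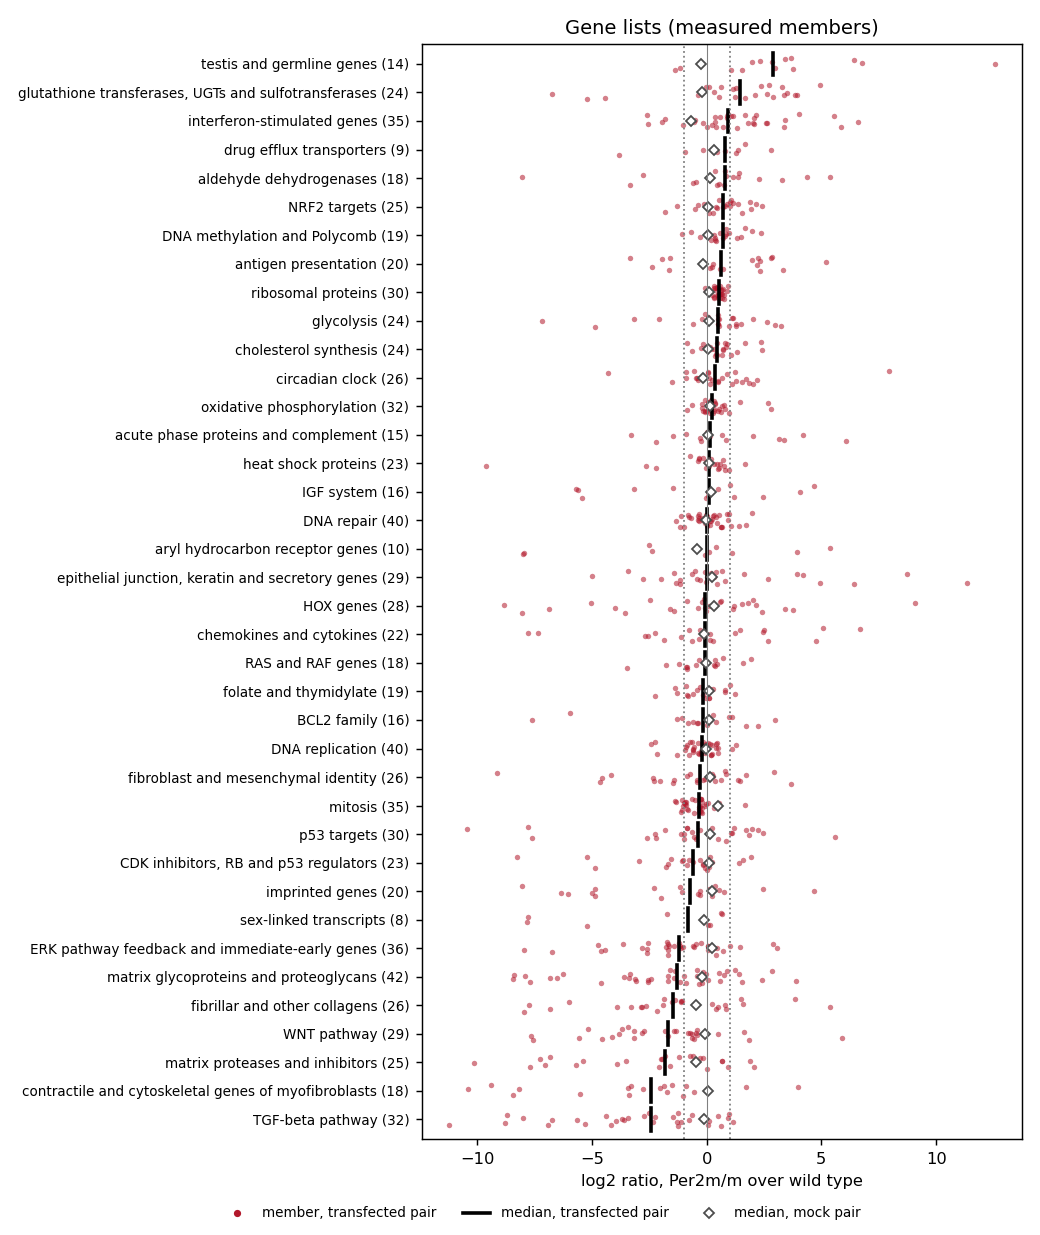
Log2 ratio of Per2m/m to wild type for each measured member of each gene list (red dots, transfected pair), with the list's median in the transfected pair (black bar) and in the mock pair (open diamond). Lists are sorted by transfected median, from testis and germline genes (2.90) down to the TGF-beta pathway (-2.43), while mock medians run from -0.68 (interferon-stimulated genes) to 0.49 (mitosis).

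The ERK pathway is the main kinase route below H-Ras, and most of its feedback and immediate-early genes were lower in Per2m/m cells. Of 36 measured, 21 were lower and 4 higher, with a median of -1.20 in the transfected pair and 0.23 in the mock pair. The early transcription factor Egr1 read 0.41 in Per2m/m cells and 5.00 in wild type cells (-4.59), against 4.13 and 3.71 in mock cells, and Fos was at least 17.7-fold lower. The phosphatases Dusp2 and Dusp5 were at least 43.8-fold and at least 14-fold lower, and of the EGF receptor ligands, Areg was at least 53-fold lower and Hbegf had a ratio of -3.63. The list's median was -0.56 after another background correction and -0.53 over genes well above background on both arrays, so its size depends on dim probes. Among 18 measured RAS and RAF genes, 2 were higher and 3 lower. Egfr, the receptor of those ligands, read -1.74 in Per2m/m cells and 1.74 in wild type cells (-3.48), while Mras and the receptor Met were higher at 1.92 and 1.60.

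Of 29 measured WNT pathway genes (of 37), 17 were lower and 3 higher, with a median of -1.69. The receptors Fzd6 and Fzd8 were at least 51.5-fold and at least 15.8-fold lower, while the receptor Fzd10 was at least 14.4-fold higher, and the inhibitors Dkk2 and Sfrp2 were at least 41.4-fold and at least 9.22-fold lower. Of these 5, Fzd10 was well above background in transfected Per2m/m cells and on no other array of the transfected or mock pairs. Like the ERK list, the WNT median was smaller in other settings, at -0.59 after the other background correction and -0.62 over genes on both arrays.

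Regulators of the cell cycle were mostly lower where they differed. Of 23 measured CDK inhibitors and regulators of RB and p53, 9 were lower and 3 higher, with a median of -0.59. The INK4 genes at one locus were both low, Cdkn2b as above and Cdkn2a, which encodes p16INK4a and p19ARF, at -0.12 in Per2m/m cells and 5.08 in wild type cells (-5.20). Cdkn1c, the CDK inhibitor p57, was at least 7.13-fold lower, Cdk2 had a ratio of -2.94 and Ccnd1, cyclin D1, of -1.79. Cdk6 was higher by a ratio of 1.94. Most proliferation genes stayed within 2-fold. Of 40 replication genes 2 were higher and 4 lower, with a median of -0.21, and of 35 mitosis genes 1 was higher and 6 lower, with a median of -0.34 in the transfected pair and 0.49 in the mock pair. Rrm2 and Tk1, which supply deoxynucleotides, had ratios of -2.15 and -2.25.

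Targets of p53, which SV40 large T antigen binds, split. Of 30 measured, 9 were higher and 8 lower, with a median of -0.38 that becomes 0.11 over genes well above background on both arrays. Gadd45a, a stress sensor in DNA repair and growth arrest, read 5.12 in Per2m/m cells and -0.48 in wild type cells (5.59), and Trp53inp1 stood at a ratio of 2.47. Tigar, a brake on glycolysis, was at least 53-fold lower and the death gene Pmaip1 (NOXA) at least 46.9-fold lower, beside Perp. The BCL2 family, 4 higher and 4 lower of 16 measured (of 20), showed the same split among killers, with Bbc3 (PUMA) at 2.22 and Bax at 1.1, against Bid at -5.96. Bcl2, which protects cells from death, read 1.84 in Per2m/m cells and 0.11 in wild type cells (1.73), and Bnip3, a hypoxia-induced mitophagy receptor, had a ratio of 2.96.

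Aldh3a1 was not matched by its whole family. Of 18 measured aldehyde dehydrogenases (of 20), 7 were higher and 3 lower, with a median of 0.78 in the transfected pair and 0.15 in the mock pair. The next highest among those well above background on both arrays, Aldh1l1, which oxidises formyl-tetrahydrofolate, read 0.46 in Per2m/m cells and -2.82 in wild type cells (3.28). On the other arrays Aldh1l1 lay between -0.71 and 0.73, so the transfected wild type array was the lowest. Aldh1a1, which oxidises retinal and other aldehydes, was at least 4.81-fold higher and Aldh1a7 at least 4.35-fold higher. The mitochondrial Aldh2, known for clearing acetaldehyde, had a ratio of 1.39. Aldh1a7 read -3.35 in transfected Per2m/m cells, below mock Per2m/m (-1.42) and mock wild type cells (-3.18), and its ratio in the mock pair was 1.75. Aldh6a1 and Aldh9a1 stood at 1.35 and 1.14. Aldh5a1, which clears succinic semialdehyde, read -6.77 in Per2m/m cells and 1.28 in wild type cells (at least 58.4-fold lower), and Aldh1b1 and Aldh1a3 were at least 2.35-fold and at least 1.38-fold lower. By measured ratio Aldh3a1 stood above the other higher members.

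Among lists with at least 20 measured members, conjugating enzymes had the largest share of higher genes. Of 24 measured glutathione transferases, UGTs and sulfotransferases (of 36 listed, 32 on the array), 15 were higher and 3 lower, with a median of 1.47 in the transfected pair and -0.21 in the mock pair. Ugt1a6b, which glucuronidates phenols, read 5.84 in Per2m/m cells and 1.90 in wild type cells (3.94), and 0.43 and 1.07 in mock cells. Ugt1a10 had a ratio of 3.86 and Gstm6 was at least 19-fold higher. The 3 lower members were Gstt3 (at least 25.9-fold), Gstt1 (at least 7.94-fold) and Gstk1 (at least 5.48-fold). Gstt1 is uncertain, as its other probe had a ratio of 0.29, and the Ugt1a genes share exons while Gstm genes are close paralogues, so their probes may read each other's transcripts.

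NRF2, a transcription factor activated by oxidants and electrophiles, drives a set of antioxidant genes. Of 25 measured targets, 9 were higher and 2 lower, with a median of 0.73 in the transfected pair and 0.07 in the mock pair. Ephx1, microsomal epoxide hydrolase, read 7.45 in Per2m/m cells and 5.03 in wild type cells (2.42). Slc7a11, the cystine importer, had a ratio of 2.16, the ferritin gene Fth1 1.93, Gclc, which makes the glutathione precursor, 1.91, and Hmox1, haem oxygenase, 1.52. Hmox1 read 5.42 in transfected Per2m/m cells, close to mock Per2m/m (5.25) and mock wild type cells (5.39). It read 3.89 in transfected wild type cells, and 3.47 and 4.10 in transfected and mock Clk/Clk cells. Cbr1, a carbonyl reductase, was lower (-1.83). The gene of NRF2 itself, Nfe2l2, read 4.83 in Per2m/m cells and 3.75 in wild type cells (1.08).

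The gene of the aryl hydrocarbon receptor, which can induce Aldh3a1 together with Cyp1 genes, was lower in Per2m/m cells. Ahr read -6.81 in Per2m/m cells and 1.21 in wild type cells, at least 55.7-fold lower, with its probe not well above background in transfected Per2m/m cells. Cyp1b1, its typical target in fibroblasts, read -3.78 and 4.16 (-7.94), the repressor Ahrr had a ratio of -2.52, and Cyp1a1 was at least 2.04-fold lower. Over the 10 measured genes of the list (of 13), 3 were higher and 4 lower, and the median of 0.01 has no fixed sign over the scalings. Whether the receptor has a part in the levels of Aldh3a1 or Ugt1a6b was not tested.

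Drug efflux transporters, which carry anticancer drugs out of cells, differed by member. The list holds pumps of the ABC family and the transporters Slc47a1 and Slc47a2. Of 9 measured (of 14), 4 were higher and 1 lower, with a median of 0.82. The P-glycoprotein genes Abcb1a and Abcb1b had ratios of 2.81 and 1.27, with Abcb1a at 0.30 in Per2m/m cells and -2.51 in wild type cells and Abcb1b at 3.57 and 2.30. Abcb4, a phospholipid carrier, had a ratio of 1.37. Abcc5 stood at 1.68 by its main probe, while its 4 probes ran from -0.15 to 1.68. Abcg2, the breast cancer resistance protein, went the other way, at -0.40 in Per2m/m cells and 3.42 in wild type cells (-3.82).

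Clock genes leaned higher in Per2m/m cells. Of 26 measured (of 27), 9 were higher and 2 lower, with a median of 0.37 in the transfected pair and -0.16 in the mock pair. Dbp, a direct CLOCK-BMAL1 output gene, read 3.97 in Per2m/m cells and 1.78 in wild type cells (2.19), and 2.24 and 3.20 in mock cells. Bhlhe40, an E-box repressor, read 2.43 and 0.41 (2.02), and 0.48 and 0.99 in mock cells. The nuclear receptor Rora had a ratio of 1.73 by its main probe and 0.14 by its other probe, while Fbxl21, an F-box protein that acts on cryptochromes, stood at 1.86. Arntl2, the paralogue of BMAL1, was the lowest, at -3.53 in Per2m/m cells and 0.76 in wild type cells (-4.29). In the mock pair Dbp, Bhlhe40 and Rora had ratios of -0.97, -0.51 and -0.96, below 0 but within 2-fold. Rora read -0.56 in transfected Per2m/m cells, -2.29 in transfected wild type cells and between -1.44 and -0.44 on the other 4 arrays. For Rora the transfected wild type array was thus the lowest, and the Per2m/m array lay within the range of the others. Of the 20 clock genes with a promoter in the RefSeq table, 5 held CACGTG.

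Interferon-stimulated genes, which cells switch on when they sense viral nucleic acid, were among the higher lists. Of 35 measured (of 40), 17 were higher and 5 lower, with a median of 0.92 in the transfected pair. In the mock pair the list leaned the other way, with 1 higher and 15 lower of 34 and a median of -0.68. Isg15, a ubiquitin-like modifier, read 3.49 in Per2m/m cells and 0.13 in wild type transfected cells (3.36), and -0.22 and 1.85 in mock cells. Oasl1 and Oasl2, of the oligoadenylate synthetase family, had ratios of 4.03 and 3.43 in the transfected pair. Mx1, an antiviral GTPase, was at least 9.71-fold higher, Gbp4 at least 11.7-fold and Trim30a at least 21.8-fold higher. Unlike most of the list, Mx1 was also higher in Per2m/m cells in the mock pair. It read -0.51 in mock Per2m/m cells and -7.54, not well above background, in mock wild type cells, against -2.19 in transfected Per2m/m cells. In transfected and mock Clk/Clk cells Isg15 read 7.16 and 6.75 and Oasl2 4.54 and 4.27, so those cultures were higher than either of the pair.

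Antigen presentation genes were also higher in part. Of 20 measured (of 21), 9 were higher and 5 lower, with a median of 0.64. Psmb9, an immunoproteasome subunit, read 1.64 in Per2m/m cells and -3.56 in wild type cells (5.20), Tap2, the peptide transporter, had a ratio of 2.78 and the class I gene H2-D1 of 2.31. H2-K1 was lower (-1.66) and the other immunoproteasome subunit Psmb8 read -6.71 in Per2m/m cells and -5.13 in wild type cells, too dim for a bound. Class I genes are close paralogues, so probes for H2-Q6 (2.34), H2-Q7 (2.20) and H2-D1 may read each other's transcripts. Chemokines and cytokines had 8 higher and 7 lower of 22 measured (of 34). Cxcl12, the ligand of CXCR4, read -2.06 in Per2m/m cells and 5.71 in wild type cells (-7.78) and 4.61 to 5.54 on the other arrays. Ccl9 was higher (4.75) and Il33, an alarm cytokine, at least 36.2-fold lower. Acute phase and complement genes had 5 higher and 3 lower of 15 measured (of 22), with a median of 0.14. C1s1 and C1ra, the proteases of the first component, stood at 4.22 and 3.14, while Masp1, a protease of the lectin pathway, stood at -2.19 and Cd55, which limits complement at the cell surface, was at least 2.08-fold lower.

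HOX genes, which record position along the body axis, differed in both directions. Of 28 measured (of 39), 10 were higher and 9 lower, with a median of -0.05 of no fixed sign. Hoxb13, a gene of the posterior end, read 2.17 in Per2m/m cells and -6.89 in wild type cells, at least 199-fold higher, while it read -3.28 and -1.69 in mock cells. Hoxc9 and Hoxb2 were at least 113-fold and at least 103-fold lower, Hoxc8 at least 25-fold lower, and Hoxb4 and Hoxb7 had ratios of -5.03 and -4.01. Within the Hoxb cluster, Hoxb13 was thus higher and Hoxb2, Hoxb4 and Hoxb7 lower.

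The testis and germline list had the highest median. Of 42 genes, 38 were on the array and only 14 were measured, of which 12 were higher and 2 lower, with a median of 2.90 in the transfected pair and -0.24 in the mock pair. Over the alternative settings the median ran from 0.84 to 2.97. After Rhox5 the largest ratio was that of Xlr, an X-linked lymphocyte and germ cell gene, at 1.70 in Per2m/m cells and -5.05 in wild type cells (6.75). Tex13b and Magea1, both X-linked testis genes, were at least 17.8-fold and at least 9.57-fold higher. Zscan4f and Zscan4c, genes of the early embryo, had ratios of 3.76 and 3.40, and they and the Xlr genes are near-identical copies that a probe cannot keep apart. The 2 lower members were Nanog (-1.39) and Dnd1 (-1.14). Of 11 measured list genes with a promoter in the RefSeq table, the median promoter held 5 CG pairs, against 19 over all 11955 measured genes with one. Among the 19 genes of DNA methylation and Polycomb, 5 were higher and 1 lower, with a median of 0.72. Dnmt3l and Dnmt3b, which set DNA methylation, had ratios of 1.68 and 1.49, and of the enzymes that remove it, Tet1 stood at 2.36 and Tet2, the lower member, at -1.06.

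Imprinted genes, which are read from 1 parental copy, were lower in 10 and higher in 2 of 20 measured (of 31), with a median of -0.73 that ran from -1.10 to -0.08 over the settings. Meg3, a maternal noncoding RNA, read -2.13 in Per2m/m cells and 3.89 in wild type cells (-6.02) and 6.12 to 6.55 on the other arrays. The paternally expressed Peg12 and Snrpn were at least 61.9-fold and at least 14.2-fold lower, and Sgce and Ndn had ratios of -6.34 and -4.86. H19, a maternal noncoding RNA, went the other way within the pair, at 0.65 in Per2m/m cells and -4.01 in wild type cells (4.66), but it was higher still in both mock cultures (2.82 and 2.51). Igf2r, also maternal, had a ratio of 2.45. In the IGF system, 5 of 16 genes were higher and 5 lower. The binding protein Igfbp7 was at least 11.1-fold lower and Igfbp2 stood at -5.42, while Igfbp4 stood at 4.07.

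Metabolic and housekeeping lists followed no single pattern. None of 30 ribosomal protein genes was 2-fold apart, yet 29 lay above 0 with a median of 0.54, which became 0.11 in the authors' quantile-normalized table. Of 32 oxidative phosphorylation genes 3 were higher and 0 lower (median 0.23), and of 40 DNA repair genes 4 were higher and 3 lower (median 0.03). Heat shock genes were within 2-fold in 19 of 23, and the 3 lower ones were all small heat shock genes, Hspb1, Hspb7 (at least 3.42-fold) and Hspb6 (-2.19). The only higher member, Hspb2 (1.67), is a small heat shock gene too, so these genes went both ways. Glycolysis had 9 higher and 4 lower of 24, with a median of 0.51. The glucose importer Slc2a1 (GLUT1) read 6.99 in Per2m/m cells and 4.01 in wild type cells (2.98) and the pyruvate dehydrogenase kinase Pdk1 had a ratio of 3.22. The lactate exporter Slc16a3 (MCT4) read -2.47 in Per2m/m cells and 4.69 in wild type cells (-7.15), so importer and exporter went opposite ways. Cholesterol synthesis had 5 higher and 0 lower of 24, led by Cyp51 (2.39) and Sqle (2.36). Folate and thymidylate genes had 2 higher and 3 lower of 19.

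Markers of other cell types were mixed. Of 17 macrophage markers, 9 were well above background in transfected Per2m/m cells and 9 in transfected wild type cells, against 17 in mock Per2m/m and 14 in mock wild type cells. Of 10 measured, 3 were higher and 2 lower. The lysozymes Lyz1 and Lyz2 were at least 47.2-fold and at least 14.3-fold higher in transfected Per2m/m cells, and Mrc1 at least 2.11-fold lower. Both lysozymes were higher still in mock cells. Lyz1 read 0.09 in transfected Per2m/m cells, against 2.51 in mock Per2m/m and 0.93 in mock wild type cells. Lyz2 read -1.63, against 0.77 and -0.77. In transfected wild type cells they read -6.19 and -7.60, not well above background. Ptprc, Adgre1 and Tyrobp, which define leukocytes and macrophages, were well above background on neither transfected array. Of 11 endothelial markers, 4 were well above background in Per2m/m cells and 5 in wild type transfected cells, and of 6 measured 1 was higher (Vwf, at least 17.2-fold) and 1 lower (Esam, at least 1.31-fold), with a median of 0.04 and with Cdh5 and Tek on neither array. Among 12 lymphocyte markers, 6 were measured, and Blnk and Itgb7 (4.61) were higher while Cd3d and Ms4a1 were on neither array. Of 10 adipocyte markers 5 were measured, 1 higher (Lpl, lipoprotein lipase, 1.79) and 3 lower, Cebpa at least 19.2-fold, Fabp4 at least 12.6-fold and, on both arrays, Pparg, the fat cell regulator, at -2.46 in Per2m/m cells and 3.36 in wild type cells (-5.82). The part of such cells in the differences was not tested.

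The mock pair, which shares no array with the transfected pair, showed little of this. Over 14519 genes measured in both pairs the Pearson r between the 2 ratios was 0.03 (Spearman -0.02), a description over genes that are not independent. Of 4598 genes apart in the transfected pair and measured in the mock pair, 4035 (87.8%) were within 2-fold between the mock cultures. The 563 genes apart in both pairs are 12.2% of these genes and 63.3% of the 889 mock differences measured in both. Of them 297 (52.8%) went the same way, 104 higher and 193 lower in both. Among those, Aqp1, a water channel, had a ratio of 6.46 in the transfected and 2.37 in the mock pair, and Msln 3.69 and 2.32. Vldlr, a lipoprotein receptor, had -6.61 and -2.07, and Ptn, the growth factor pleiotrophin, -6.93 and -1.90. Aqp1, Vldlr and Ptn were chosen after their values were seen. The difference between both ratios has no replicate and was not tested.

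**Figure D4:**
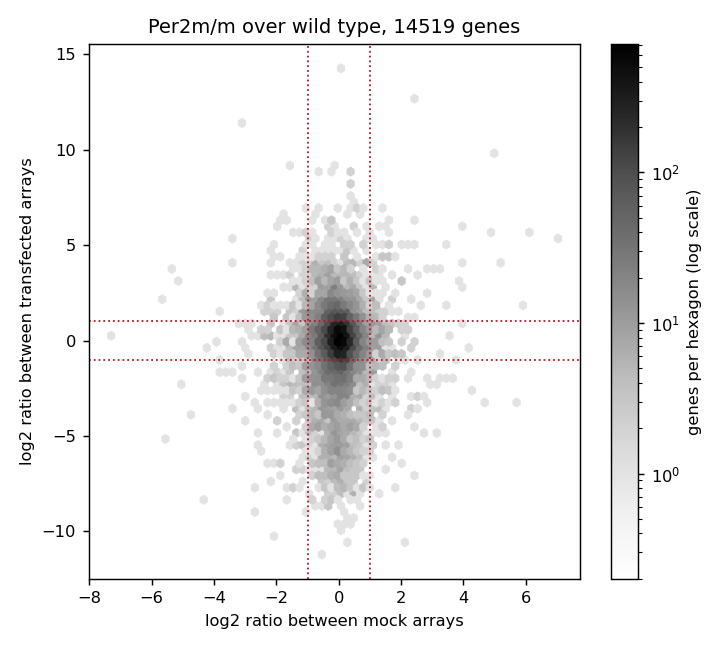
Log2 ratio of Per2m/m to wild type in the transfected pair (vertical) against that in the mock pair (horizontal) for 14519 genes, shaded by genes per hexagon on a log scale, with dotted lines at 2-fold. The cloud is tall and narrow, and its r is 0.03.

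Ranges over the other arrays show on which side a difference sat. Of the 2451 higher genes, the Per2m/m array alone lay outside the range of the 4 other arrays in 1000, the wild type array alone in 226, both in 1099 and neither in 126. Of the 2719 lower genes it was the Per2m/m array alone in 1209, the wild type array alone in 207, both in 1149 and neither in 154. Among 10066 genes within 2-fold, the counts were 2170, 1335, 4245 and 2316. Differences that rest on the Per2m/m array alone were thus 40.8% of the higher and 44.5% of the lower genes, and those on the wild type array alone 9.22% and 7.61%.

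Ratios also differed by chromosome (probe positions on mm9). The median was 0.53 on chromosome 17, where 28.9% of 782 genes were higher, and -0.35 on chromosome 14, where 33.7% of 537 were lower (a median of -0.14 over genes well above background on both arrays and 0.10 with no filter on dim probes), while the other autosomes and X had medians from -0.15 to 0.27. In the mock pair the medians of all of these lay between -0.04 and 0.06. Chromosomes were cut into 4 blocks of equal gene number, 80 in all. On chromosome 17 the blocks were alike, at 0.57, 0.61, 0.48 and 0.45. On chromosome 14 they were -0.04, 0.00, -0.48 and -1.56. The last block, with probe starts from 68738193 to 124379079, had 89 of its 134 genes lower (66.4%) and 8 higher (a median of -1.28 over genes on both arrays and -0.64 with no filter), and its mock median was 0.02. This block was singled out after its values were seen, and the other 79 blocks had medians from -0.57 to 0.61. Set against the median level of each gene over 6 arrays, 98 genes of that block deviated by a median of -1.08 on the transfected Per2m/m array and by 0.18 on the transfected wild type array, and by -0.02 to 0.07 on the other 4, so the shift sat on the Per2m/m array. Chromosome 17 deviated by 0.60 on the Per2m/m array and 0.01 on the wild type array. Loxl2 and Tnfrsf10b, named above or in the lists, lie in the last block of chromosome 14. On Y, 9 of 11 genes were lower, and the median over 12 mitochondrial genes was 0.02.

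**Figure D5:**
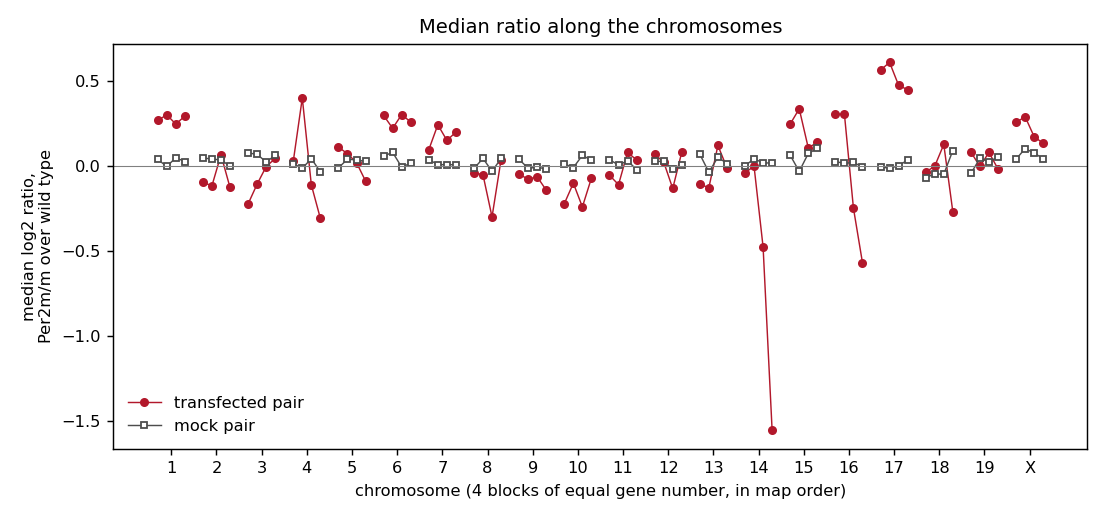
Median log2 ratio of Per2m/m to wild type in 4 blocks of equal gene number along each chromosome, in map order, for the transfected pair (red) and the mock pair (open squares). The last block of chromosome 14 is at -1.56, all blocks of chromosome 17 are at 0.45 to 0.61, and the mock pair stays between -0.07 and 0.11.

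Promoters of the differing genes were read for 2 motifs and for CG pairs, using the first promoter listed for each gene in RefSeq (GRCm38.p6, 300 bases). Both motifs, CACGTG and the CArG box, read the same on either strand and cannot overlap by their letters. CACGTG was in 7.24% of all 27025 promoters of the table and in 9.59% of those of measured genes, with 9.15% among higher, 8.08% among lower and 10.1% among genes within 2-fold. The CArG box, in the strict form given above, was in 1.57% of all promoters and 1.48% of those of measured genes. It was in 1.13% among higher and 2.26% among lower genes, and in 2 of 16 contractile genes, Cnn2 and Myl9. Near matches such as those of Acta2 are not counted. The median number of CG pairs was 14 in higher genes, 18 in lower genes and 20 in genes within 2-fold. Genes higher and well above background in Per2m/m cells only had a median of 5 (397 genes), and genes lower and well above background in wild type cells only had 14 (1019 genes). A match is a description of letters, not of binding.

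Where a gene had several probes they mostly went together. Of 1300 genes apart with at least 2 measured probes, all probes shared a direction in 1163 (89.5%), and all were at least 2-fold apart in 865 (66.5%). Abcc5, Gstt1, Hras and Mylk, named above, have probes that disagree in direction.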

How the data were processed

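The deposited scanner output gives each spot an intensity, linear in scale (gProcessedSignal of single-colour Cy3 Agilent arrays), extracted by the authors with Feature Extraction 10.7.1.1 per the file headers and 9.5.1.1 per the submitters' processing notes. The authors' deposited table of the series, also intensity with a median of 23.8 in each column, followed the log2 signal of the same arrays and was used as a quantile-normalized alternative. Computed here: control and outlier spots (85 to 125 of 59305 per array) were left out, 0 were saturated, spots of a probe were averaged, and log2 intensity minus the array's 75th percentile gave the level. The log2 levels and ratios were computed here from the deposited intensity. Gene names came from the RefSeq table (GRCm38.p6), which matched 27318 of 55681 probes by accession, 3527 by symbol and 553 by synonym, and left 24283 without a name. A gene is its probe with the highest mean level among those well above background on at least 1 of 6 arrays, which kept 16727 genes. With 1 array a group no p-value was computed, and the number of arrays limits the precision.

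Named genes were the targets and sex-linked genes, the 12 highest and 12 lowest ratios on both arrays, the 6 brightest genes on 1 array only per side, and up to 6 members of each list with the largest ratio at 2-fold or more (any member of lists of up to 20), of which some are not reported here. Members and lists were chosen with earlier results of these data known. Alternatives were other scaling, the deposited table, normexp background correction (limma 3.58.1, R 4.3.3, offset 50), other filters on dim probes, other probe choices and outliers kept. Reading and drawing used Python 3.11.15, pandas 2.3.3, numpy 2.4.6 and matplotlib 3.10.9, and the steps were tested on simulated data. All arrays lay on 1 slide.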

Additional observations from a re-analysis of the deposited data

Results flagged for a closer look

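For 23 named genes the mock pair went the opposite way to the transfected pair, each by at least 2-fold by measured ratio. None of these differences between the pairs was tested, as each group holds 1 array. Higher in transfected and lower in mock Per2m/m cells, relative to wild type, were Slpi (mock log2 ratio -3.09), Oasl1 (-3.42), Oasl2 (-2.20), Isg15 (-2.08), Ccl8 (-1.86), Hoxb13 (-1.59), Eno2 (-1.35), Tubb3 (-1.30), Ugt1a10 (-1.16), C1s1 (-1.12) and Syt8 (-1.08). Of these, 3 are interferon-stimulated genes. Oasl1, Oasl2, Ugt1a10 and Syt8 were not well above background in mock Per2m/m cells, so the sizes of their mock ratios are uncertain.

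Lower in transfected and higher in mock Per2m/m cells were Nt5e (mock log2 ratio 3.16), Mrc1 (2.78), Perp (2.10), Tslp (1.32), Areg (1.29), Ercc1 (1.18), Krt19 (1.17), Kif20a (1.17), Nes (1.14), Ccnd1 (1.06), Sp7 (1.05) and Col2a1 (1.01). They belong to different lists and share no single function. Mrc1 was not well above background in mock wild type cells, so the size of its mock ratio is uncertain. Given as a bound, Sp7 was at least 1.99-fold lower in the transfected pair.

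Probes with no gene name also differed. Of 10611 measured, 3292 were at least 2-fold apart between the transfected cultures, 1722 higher (16.2%) and 1570 lower (14.8%) in Per2m/m cells. In the mock pair 1558 of 10860 were apart, 523 higher and 1035 lower. Probes for long noncoding RNAs made up 6722 of those measured in the transfected pair, with 1080 higher and 1125 lower.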

How the results depend on the processing

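No paired analysis was possible because each group holds 1 array. Genes counted as lower numbered 2719, and 1720 after normexp background correction or 1398 over genes well above background on both arrays, where fewer genes are tested, and the count of higher genes stayed between 1789 and 3399. The median over all genes was 0.14 over genes on both arrays and 0.32 with no filter. With alternatives added after seeing the data, the chromosome 14 median was -0.18 (normexp), -0.14 (both arrays) and 0.10 (no filter), that of chromosome 17 0.44 (deposited table) and 0.64 (no filter), and that of the last block of chromosome 14 -1.11 (normexp), -1.28 (both arrays), -0.64 (no filter) and -1.43 (median over probes). The cause of these shifts was not tested. The sign turned for adipocyte markers (0.085, no filter) and, with the probe brightest over the pair, for Gstt1 (0.29) and Mylk (-0.94). Of 254 named genes apart, 1930 of 1932 values kept their direction and 1899 also their size of 2-fold. Most of these genes were chosen for large ratios on the same arrays, and the values over genes on both arrays repeat the main ones. These counts are therefore no check of the differences. With normexp background correction 228 of 251 values stayed past 2-fold. Of 47 lists, 8 medians turned sign over the scalings, and over genes on both arrays those of fibroblast identity (0.08) and p53 targets (0.11) did too. At 4-fold, 56.6% of genes went the same way in the mock pair, and over genes on all 4 arrays r was -0.01. Signal near background limits the sizes given as bounds. Over the settings the medians ran from -1.40 to -0.41 for matrix genes, -1.89 to -0.66 for proteases, 0.43 to 0.74 for NRF2 targets, 0.11 to 0.61 for glycolysis, -0.71 to -0.27 for CDK inhibitors and 0.01 to 0.24 for oxidative phosphorylation.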
